A study of Mus musculus with 2 samples.

Results

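The 8 heme synthesis enzyme genes Alas1, Alas2, Alad, Uros, Urod, Cpox, Ppox and Fech were followed in single-cell RNA sequencing of LSK cells. These are mouse bone marrow cells without lineage markers and with Sca1 and c-Kit on the surface, sorted after red blood cell lysis, and they include blood stem cells and multipotent progenitors. The members were found by symbol, 8 of the 31053 genes in the deposited tables. There were 2 libraries, both from bone marrow of C57BL/6J mice that were 6-8 weeks old. The IR library came from mice taken on day 15 after 5 Gy of total body irradiation, and the CTL library came from control mice. How many animals were pooled in each library was not stated, and 1 library per group leaves nothing to test between groups. Every interval below is a 95% interval for counting error only, so a difference larger than its interval is a difference between these libraries and not yet one between irradiated and control animals.

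Heme is an iron-bearing ring made by a short chain of enzymes that starts and ends in mitochondria. ALAS joins glycine to succinyl-CoA, ALAD, UROS and UROD then build and trim the ring in the cytosol, and CPOX, PPOX and FECH oxidise it and insert iron. Most cells use ALAS1 for the first step and make modest amounts for cytochromes and peroxidases, whereas red cell precursors switch to ALAS2, whose promoter is driven by erythroid factors, and make heme for hemoglobin.

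After filtering, the IR library held 5112 cells and 162748209 UMIs (unique molecular identifiers, each standing for 1 captured RNA molecule), and the CTL library held 7188 cells and 138080503 UMIs. Cells differed in depth, with a median of 29615 UMIs in IR and 16083.5 in CTL, so shares of cells with a UMI were taken from counts drawn down to 5000 UMIs in every cell, which leaves out 59 shallower cells in IR and 66 in CTL. Levels are counts per 1000000 UMIs (CPM) of the summed cells. The gate's own markers were present in both libraries, with Ly6a (Sca1) at 217.6 CPM in IR and 155.7 CPM in CTL and Kit at 73.5 CPM in IR and 132 CPM in CTL. Marker genes named HSC-like, lymphoid-primed-like, megakaryocyte-primed-like, neutrophil-primed-like and erythroid-primed-like clusters, and 2164 IR cells and 3447 CTL cells stayed unnamed. The mix of classes differed widely. Erythroid-primed cells numbered 457 in IR and 39 in CTL, neutrophil-primed cells 1185 in IR and 152 in CTL, megakaryocyte-primed cells 514 in IR and 221 in CTL, HSC-like cells 343 in IR and 1677 in CTL, and lymphoid-primed cells 323 in IR and 1476 in CTL. The libraries shared 16 barcodes.

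Over all cells Alas1 and Cpox stood more than 2-fold higher in the IR library, and Urod and Alad were higher by less. From these sums alone, more cells of a type and more RNA per cell cannot be told apart. Alas1 had 68.9 CPM in IR and 28.4 CPM in CTL, a 2.43-fold difference (log2 1.28, interval 1.23 to 1.33). Cpox had 29.7 CPM in IR and 14.0 CPM in CTL, a 2.12-fold difference (log2 1.08, interval 1.01 to 1.16). Urod was at 42.2 CPM in IR and 30.6 CPM in CTL (1.38-fold), and Alad at 49.9 CPM in IR and 39.5 CPM in CTL (1.26-fold). Uros (7.69 CPM in IR, 6.16 CPM in CTL, 1.247-fold) and Fech (11.9 CPM in IR, 9.88 CPM in CTL, 1.20-fold) lay below the 25% excess that was counted as higher (lower was counted from 20% down). Ppox alone ran the other way, with 10.1 CPM in IR and 11.7 CPM in CTL (log2 -0.21). Alas2 was too scarce to be counted, with 40 UMIs in 14 IR cells and 14 UMIs in 5 CTL cells.

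Of the 8 members, 7 had a mean of at least 5 CPM, and 4 of these (Alas1, Alad, Urod, Cpox) were at least 25% higher in IR, against 17.2% of the 9032 genes at that level. None was at least 20% lower, against 28.3% of all genes. Alas1 and Cpox were also at least 2-fold higher, a size reached by 1.41% of all genes. The median log2 ratio of the 7 was 0.34, beside -0.06 over all genes. In thinned cells Alas1 had at least 1 UMI in 19.7% of IR cells and 11.1% of CTL cells, Cpox in 10.7% and 6.14% (IR, CTL). In the same order of libraries, Alad had at least 1 UMI in 21.0% and 16.5%, Urod in 18.03% and 14.4%, Fech in 5.22% and 4.66%, Uros in 3.62% and 3.05%, and Ppox in 4.87% and 5.53%. No class in this gate is known to lack these housekeeping enzymes, so no background share from free RNA could be set for them.

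**Figure D1:**
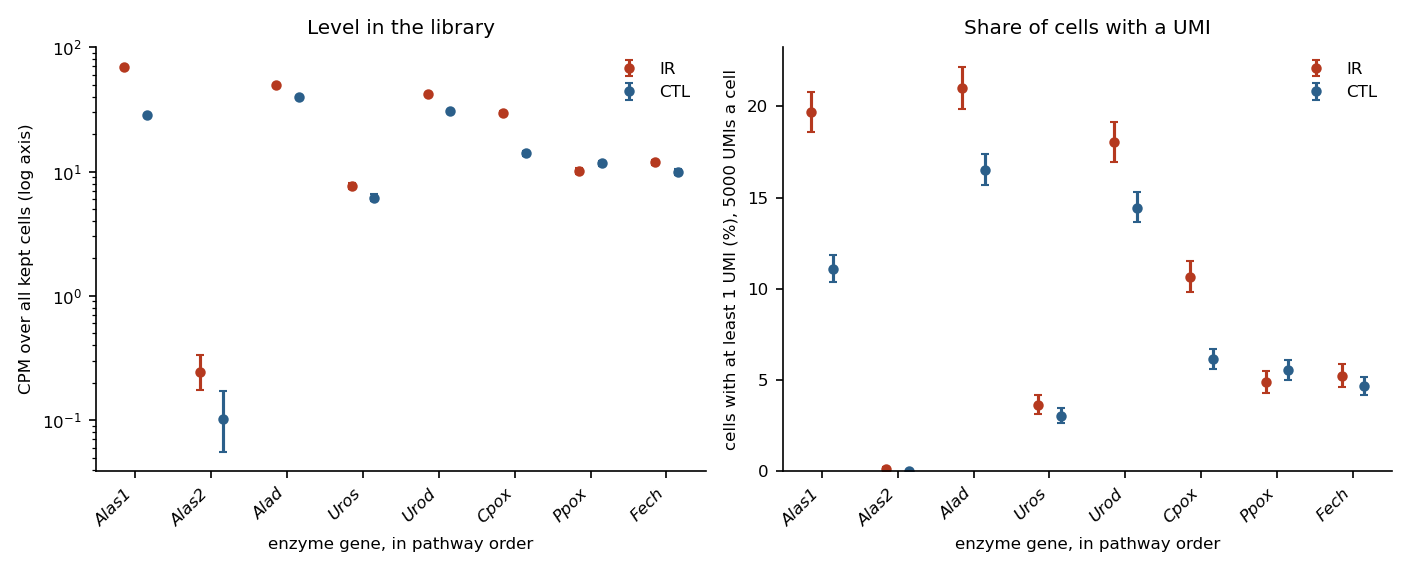
Level of each enzyme gene in the IR (red) and CTL (blue) library over all kept cells, as CPM on a log axis (left) and as the percentage of cells with at least 1 UMI after thinning to 5000 UMIs a cell (right); bars are 95% intervals for counting error. Alas1 (68.9 CPM in IR, 28.4 CPM in CTL) and Cpox (29.7 CPM in IR, 14.0 CPM in CTL) show the widest gaps among the genes above 5 CPM, and Alas2 sits near 0.

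Of the 2 genes for the first step of the pathway, Alas1 was found in every class and Alas2 in few cells. Alas1 lies on chromosome 9 (chr9:106233455-106248654, minus strand) and Alas2 on the X chromosome (chrX:150547375-150570638, plus strand), both in GENCODE M21 on GRCm38. RefSeq (GRCm38.p6) held promoters for 7 of the 8 genes, all but Fech. The 250 bases before the start are shown for Alas2, for the downstream of the 2 Alas1 starts, and for Cpox, the later enzyme with the largest excess in erythroid-primed cells, because these are the genes that separate the classes. Capitals mark GATA words (the letters GATA with A or T before them and A or G after them), CACCC words (CCACACCC, CCGCACCC or CCCCACCC) and the NRF1 consensus word, read on either strand.
Alas2, chrX:150547167-150547416, plus strand: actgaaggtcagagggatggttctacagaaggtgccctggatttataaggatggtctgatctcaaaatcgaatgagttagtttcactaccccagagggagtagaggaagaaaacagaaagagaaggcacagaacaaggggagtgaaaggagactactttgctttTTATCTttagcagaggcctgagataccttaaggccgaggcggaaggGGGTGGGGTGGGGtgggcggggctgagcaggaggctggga
Alas1, chr9:106247731-106247980, minus strand: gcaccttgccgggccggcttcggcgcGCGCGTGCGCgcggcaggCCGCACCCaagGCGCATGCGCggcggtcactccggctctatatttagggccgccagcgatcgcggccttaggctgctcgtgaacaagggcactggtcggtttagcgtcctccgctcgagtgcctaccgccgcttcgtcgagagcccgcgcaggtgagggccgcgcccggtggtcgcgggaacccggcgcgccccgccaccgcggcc
Cpox, chr16:58669958-58670207, plus strand: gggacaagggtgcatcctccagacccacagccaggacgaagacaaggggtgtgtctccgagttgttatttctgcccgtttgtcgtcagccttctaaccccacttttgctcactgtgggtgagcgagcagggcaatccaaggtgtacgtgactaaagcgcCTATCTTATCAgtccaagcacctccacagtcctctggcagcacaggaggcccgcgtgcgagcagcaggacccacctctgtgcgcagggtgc
The Alas2 stretch held 1 GATA word and, closer to the start, a pair of overlapping CACCC words. The Alas1 stretch held no GATA word, 1 CACCC word and NRF1 words at 2 positions. The Cpox stretch held a pair of GATA words that share 1 base. Over all 32851 RefSeq promoters of this length, 26.5% held a GATA word, 13.1% a CACCC word and 3.74% an NRF1 word, so these matches describe the letters only. The GENCODE start of Alas2 lies inside the window shown, and the Alas1 window lies inside the GENCODE span of the gene. GATA words were also found before 1 of 2 Uros starts, and none before the starts of Alad, Urod or Ppox.

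Alas1 was highest in the neutrophil-primed cells in both libraries. It stood at 157 CPM in IR and 133 CPM in CTL in that class, 5.98-fold above all other IR cells and 5.65-fold above all other CTL cells. The class carried 74.2% of all Alas1 UMIs in IR and 20.4% in CTL, while it made up 32.5% of all UMIs in IR and 4.35% in CTL. The next group by level, an unnamed cluster led by Ctsg and Mpo together with DNA replication genes such as Hells and Uhrf1, had 39.5 CPM in IR and 32.7 CPM in CTL. In the other large classes the level was low and close between libraries: 19.1 CPM in IR and 18.2 CPM in CTL in HSC-like cells, 24.8 CPM in IR and 24.98 CPM in CTL in lymphoid-primed cells, and 17.0 CPM in IR and 17.5 CPM in CTL in megakaryocyte-primed cells. Erythroid-primed cells had 10.98 CPM in IR and 16.3 CPM in CTL, with overlapping intervals (9.27 to 12.9 in IR, 8.90 to 27.3 in CTL). The CTL interval also covers the levels of HSC-like, lymphoid-primed and megakaryocyte-primed CTL cells. Thinning the cells turned that log2 ratio to 0.66, a value on few UMIs. Of the 33 thinned CTL cells 3.03% had an Alas1 UMI (interval 0.077 to 15.8%). An antisense gene, 4930500F10Rik, overlaps 695 bases of Alas1.

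The neutrophil-primed class joined clusters of unequal Alas1 level. In the cluster led by Elane, Cebpe and Lcn2, for which Alas1 was itself among the 25 leading genes, it reached 206 CPM in IR and 162 CPM in CTL (log2 0.35, interval 0.17 to 0.53). In the cluster that also carried the monocyte genes Ly6c2, F13a1 and Ccr2 it was 122 CPM in both libraries (log2 0.01, interval -0.13 to 0.14). Over the class the difference was log2 0.24 (interval 0.13 to 0.35), below the 25% mark, while 8 of 11 alternatives passed that mark, up to 0.80 with all barcodes kept. The class did not hold the same cells in all of them. With all barcodes it also took in a cluster led by Ctsg and Mpo, with 615 IR and 361 CTL cells. Similar clusters joined it with markers left out of the clustering (593 IR, 294 CTL cells) or heme genes kept in it (609 IR, 323 CTL cells). The part of these cells in the ratio was not tested. As reported, the cluster led by Elane, Cebpe and Lcn2 held 486 IR cells and 46 CTL cells. The cluster with the monocyte genes held 699 IR cells and 106 CTL cells. Markers of mature neutrophils summed to 187 CPM in IR and 7537 CPM in CTL within the class, and all 9 were detected in both libraries. Their part in the Alas1 difference was not tested.

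Cells were also ranked within the class by their thinned UMIs of 9 neutrophil markers and cut into terciles, all of them also naming genes. From the lowest to the highest tercile Alas1 stood at 79.1, 145 and 256 CPM in IR and at 67.0, 106 and 219 CPM in CTL. In each library the highest tercile stood well above the lowest. Terciles were cut in each library alone, so the same tercile covers unlike scores. They ran over 5 to 45, 46 to 75 and 75 to 320 marker UMIs in IR, and over 0 to 26, 26 to 53 and 54 to 342 in CTL. The libraries were therefore not compared at the same point of this axis. Mpo, the heme-bearing peroxidase of neutrophil granules, a naming gene left out of the score, ran from 2165 over 3516 to 4629 CPM in IR and from 1648 over 2935 to 4709 CPM in CTL. Of the later enzymes Cpox had 17.9, 20.7 and 25.3 CPM in IR and 11.1, 14.9 and 21.3 CPM in CTL, and Fech had 11.2, 10.4 and 13.1 CPM in IR and 13.5, 9.38 and 13.9 CPM in CTL. The genes for the end of the pathway therefore showed much less of a gradient than Alas1 in the same cells.

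Alas2 was found in a handful of cells. Erythroid-primed cells held 27 of the 40 UMIs in IR, in 7 cells, and 13 of the 14 UMIs in CTL, in 4 cells. The same class held 146 Alas1 UMIs in 116 IR cells and 14 Alas1 UMIs in 10 CTL cells. In CPM Alas2 was 2.03 in IR and 15.1 in CTL (log2 -2.90, interval -3.90 to -1.82), opposite in direction to the whole library. No Alas2 UMI was seen in HSC-like, lymphoid-primed, neutrophil-primed or B lineage cells, 1875 cells in IR (which allows a share of cells with a captured UMI of up to 0.16%) and 3415 cells in CTL (up to 0.0878%). This does not limit the share of cells that express the gene at low level. These cells had a median depth of 34570 UMIs in IR and 12710 in CTL, beside 24051 in IR and 17234 in CTL for erythroid-primed cells. The classes were pooled because both libraries held no Alas2 UMI in them, so the limits are a description only. T and NK lineage cells, 28 in IR and 40 in CTL, also held none and were left out of the pool. The remaining IR UMIs were 8 in 2 cells of the dendritic-like cluster, 3 in 3 megakaryocyte-primed cells and 2 in 2 unnamed cells, and the remaining CTL UMI was in 1 unnamed cell. In CPM the dendritic-like cluster, with 74 IR cells, stood at 6.18 in IR, above the 2.03 of erythroid-primed cells, and at 0 in CTL. Alas2 shares its whole span with Apex2 on the other strand, and whether strand was used in counting is not given in the sources used here, so the 2 genes cannot be fully told apart.

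Most of these UMIs lay in cells rich in hemoglobin RNA. Cells with at least 100 UMIs of the 4 hemoglobin genes, a limit set after the values were seen, numbered 19 in IR and 6 in CTL, and they held 75% of the Alas2 UMIs in IR and 92.9% in CTL. Single cells had up to 15 Alas2 UMIs in IR and up to 5 in CTL. Among erythroid-primed cells 12 of 457 in IR and 6 of 39 in CTL were hemoglobin-rich, and within them Alas2 stood at 70.0 CPM in IR (interval 44.4 to 105) and 161 CPM in CTL (interval 85.7 to 275). The other erythroid-primed cells had 4 Alas2 UMIs in 445 IR cells and 0 in 33 CTL cells, 0.308 CPM in IR and 0 CPM in CTL. Late erythroid markers summed to 1206 CPM in IR and 6441 CPM in CTL in the class, with all 7 of them detected in both libraries. Their part in the Alas2 difference was not tested.

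The 6 enzymes after the first step were highest in erythroid-primed cells in both libraries, where Alas1 was low. Alad (chr4:62509169-62519918, minus strand), which joins 2 ALAS products into the first pyrrole, had 151 CPM in IR and 164 CPM in CTL there, 3.69-fold above all other IR cells and 4.24-fold above all other CTL cells. Urod (chr4:116989965-116994413, minus strand), which removes carboxyl groups from uroporphyrinogen, had 110 CPM in IR and 90.7 CPM in CTL (3.04-fold and 3.003-fold above the rest, IR and CTL). Uros (chr7:133686243-133710072, minus strand), which closes the ring, had 14.1 CPM in IR and 13.9 CPM in CTL. Its CTL value rested on 12 UMIs, of which 8 were in the 6 hemoglobin-rich cells, and without those cells Uros stood at 11.2 CPM in IR and 5.13 CPM in CTL, the CTL value then below that of megakaryocyte-primed cells (7.58 CPM).

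Cpox (chr16:58670292-58717636, plus strand), which oxidises coproporphyrinogen, was the most class-bound of them, with 158 CPM in IR and 150 CPM in CTL, 8.67-fold above all other IR cells and 11.4-fold above all other CTL cells. The erythroid-primed cells held 43.5% of all Cpox UMIs in IR and 6.66% in CTL, from 8.17% of the UMIs in IR and 0.623% in CTL. Fech (chr18:64452914-64490251, minus strand), which inserts the iron, had 38.4 CPM in IR and 44.2 CPM in CTL, 4.04-fold and 4.57-fold above the rest (IR, CTL). Ppox (chr1:171275990-171281186, minus strand), the last oxidase, had 19.2 CPM in IR and 39.5 CPM in CTL. Outside this class the levels lay close together: Cpox ran from 14.0 to 23.2 CPM in IR and from 12.5 to 24.9 CPM in CTL over the megakaryocyte-primed, neutrophil-primed, HSC-like and lymphoid-primed cells, and Fech from 5.49 to 13.03 CPM in IR and from 8.79 to 13.4 CPM in CTL. Urod was second highest in megakaryocyte-primed cells in both libraries, at 60.5 CPM in IR and 38.8 CPM in CTL. Short stretches of Uros, Cpox and Ppox overlap Bccip, Gpr15 and B4galt3 on the other strand.

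**Figure D2:**
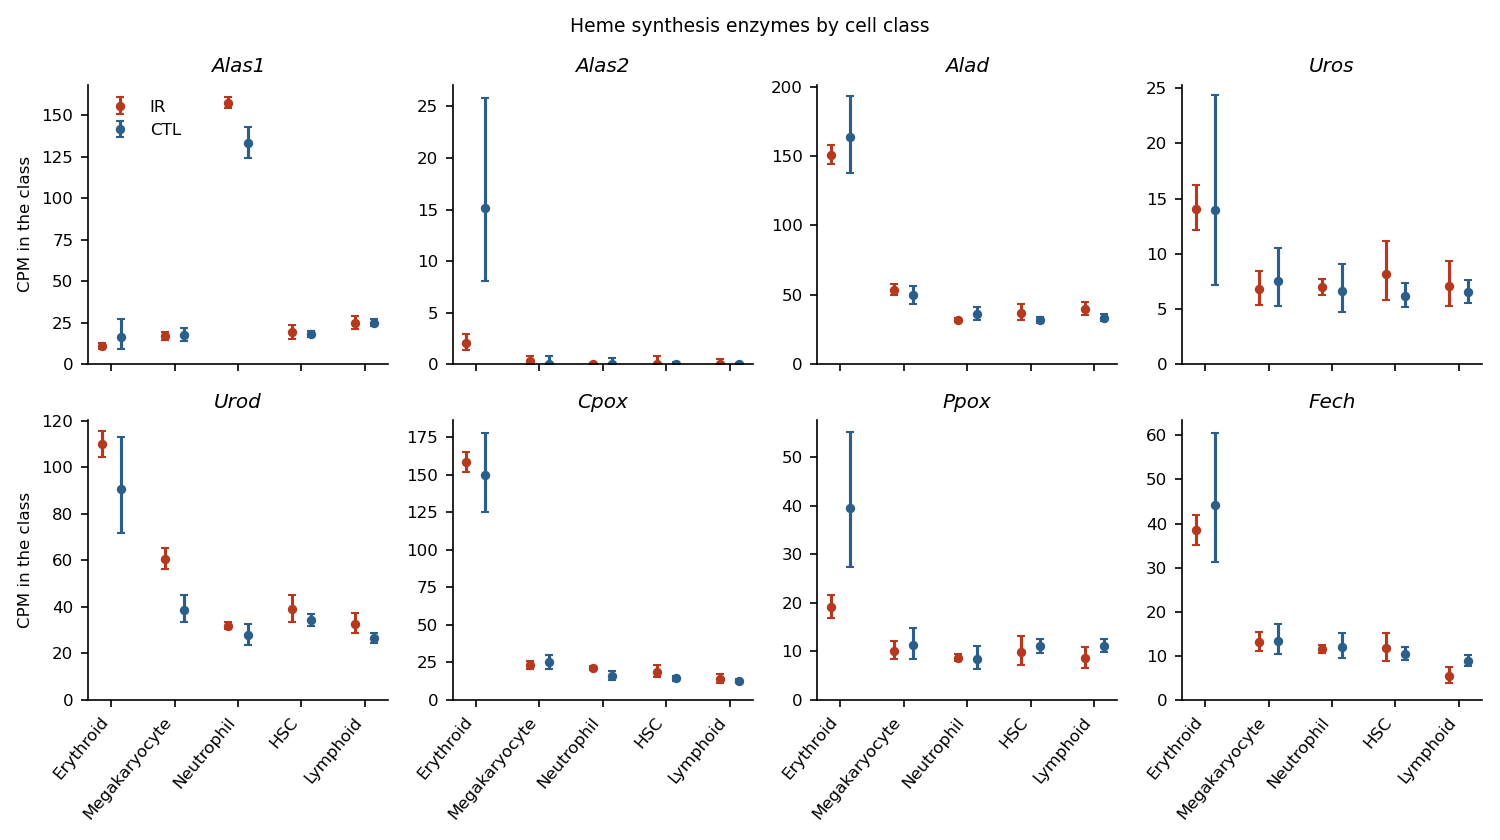
CPM of each enzyme gene in 5 cell classes, with IR (red) left of CTL (blue) and 95% intervals for counting error. Alas1 peaks in neutrophil-primed cells (157 CPM in IR, 133 CPM in CTL), whereas the other 7 genes peak among these classes in erythroid-primed cells, whose CTL values rest on 39 cells. The dendritic-like cluster, where Alas2 was higher in IR, is not shown.

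The CTL erythroid-primed group was too small for a comparison of counts, so its member values are given with intervals only. Ppox differed most after Alas2, with a log2 ratio of -1.04 (interval -1.56 to -0.48), which turned to 0.88 without its 10 top cells in each library. Cpox (0.08, interval -0.18 to 0.35) and Alad (-0.12, interval -0.37 to 0.14) differed by less than their counting error. Without the hemoglobin-rich cells, an alternative added after the data were seen, the levels of the other 445 IR cells and 33 CTL cells ran apart: Cpox had 146 CPM in IR and 87.2 CPM in CTL (log2 0.74, interval 0.39 to 1.11) and Urod 105 CPM in IR and 73.1 CPM in CTL (0.52, interval 0.13 to 0.93), while Ppox stayed lower in IR with 17.0 CPM in IR and 26.9 CPM in CTL (-0.66, interval -1.31 to 0.06). The hemoglobin-rich cells themselves were the richest in the late enzymes, with Cpox at 667 CPM in IR and 755 CPM in CTL, Alad at 478 CPM in IR and 607 CPM in CTL, Fech at 170 CPM in IR and 186 CPM in CTL, and Alas1 at 6.09 CPM in IR (2 UMIs) and 0 CPM in CTL.

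Along the erythroid axis of the IR library Cpox, Fech, Alad and Urod had a higher CPM with each tercile. The 440 IR cells of the class with at least 5000 UMIs were ranked by 7 of the erythroid naming genes (Car1, Car2, Aqp1, Epor, Ermap, Rhd and Cldn13) and cut into terciles. From lowest to highest, Cpox stood at 46.1, 119 and 243 CPM, Fech at 16.9, 30.3 and 55.1 CPM, Alad at 82.9, 142 and 189 CPM and Urod at 76.01, 99.2 and 134 CPM. Uros had 6.88, 8.25 and 22.01 CPM and Ppox 13.07, 16.05 and 24.6 CPM. Alas1 did not follow, at 13.07, 9.81 and 10.9 CPM with overlapping intervals, and Alas2 appeared in the top tercile with 26 of its 27 UMIs. Tfrc, the transferrin receptor that brings in iron, had 47.8, 92.3 and 177 CPM, and Gata1, an erythroid transcription factor known to act on the Alas2 promoter, had 94.2, 90.9 and 100.005 CPM with overlapping intervals. Depth rose along the same axis, with medians of 17615, 26876 and 38571 UMIs, and in cells thinned to equal depth Cpox was still detected in 14.97%, 26.5% and 58.9% of cells and Fech in 8.16%, 8.16% and 21.9%. Uros was detected in 3.40%, 2.72% and 10.96% and Ppox in 4.76%, 10.2% and 9.59%, and the CPM intervals of their lowest and middle terciles overlapped.

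**Figure D3:**
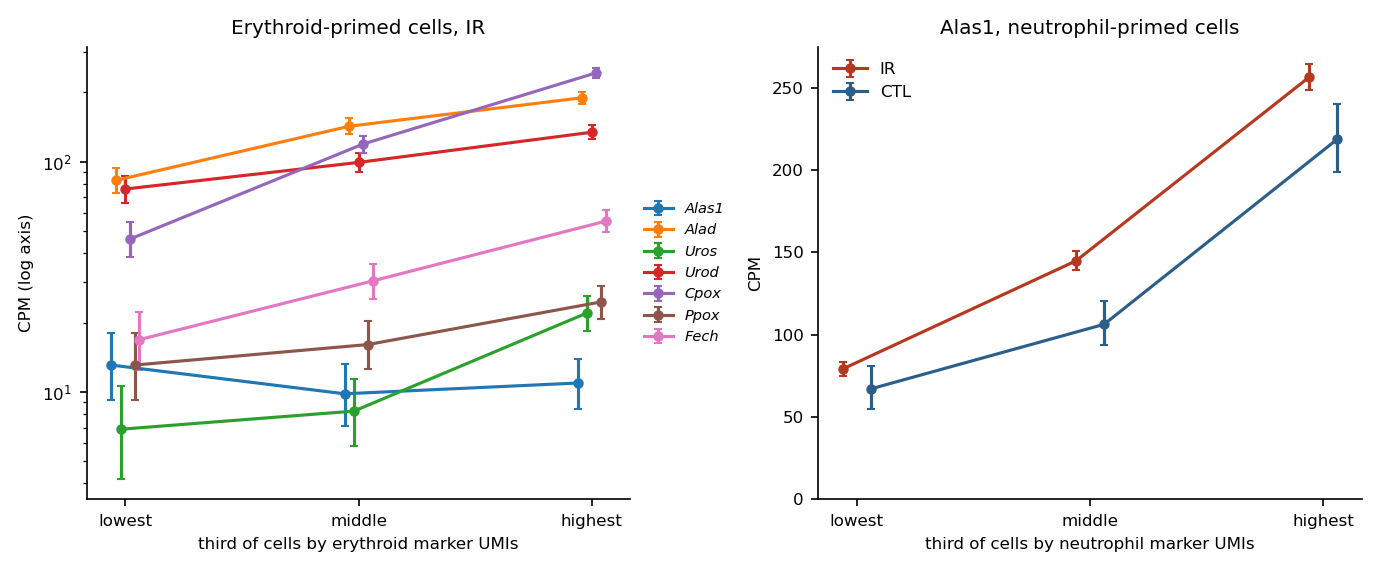
CPM of the enzyme genes in terciles of IR erythroid-primed cells ranked by erythroid marker UMIs (left, log axis) and of Alas1 in terciles of neutrophil-primed cells ranked by neutrophil marker UMIs (right, IR red and CTL blue), with 95% intervals for counting error. Cpox runs from 46.1 to 243 CPM while Alas1 stays between 9.81 and 13.07 CPM on the left, and Alas1 climbs to 256 CPM in IR and 219 CPM in CTL on the right. The terciles on the right were cut in each library alone and cover unlike scores.

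Within the 4 classes compared, the Alas1 and Cpox ratios were smaller than over all cells, while those of Urod in megakaryocyte-primed cells, of Uros in HSC-like cells and of Fech and Ppox in lymphoid-primed cells were larger in size. In HSC-like cells 2 of 7 measured members were at least 25% higher in IR, where 9.97% of all genes were, and none was at least 20% lower, where 18.4% were. They were Cpox, with 18.9 CPM in IR and 14.2 CPM in CTL (log2 0.41, interval 0.05 to 0.75), and Uros, with 8.18 CPM in IR and 6.20 CPM in CTL (0.40, interval -0.16 to 0.93), a ratio that turned to -0.013 without its 10 top cells. In lymphoid-primed cells none was higher, where 11.9% of all genes were, and 2 were lower, where 21.5% were: Fech, with 5.49 CPM in IR and 8.79 CPM in CTL (-0.68, interval -1.22 to -0.17), and Ppox, with 8.52 CPM in IR and 11.1 CPM in CTL (-0.38, interval -0.82 to 0.03), a ratio that turned to 0.09 in thinned cells. In megakaryocyte-primed cells Urod was the 1 member higher, beside 8.95% of all genes, at 60.5 CPM in IR and 38.8 CPM in CTL (0.64, interval 0.40 to 0.89). The class held mast cell and basophil markers at a summed 252 CPM in IR and 1696 CPM in CTL, with Tpsb2 at 0 in IR and Tpsb2 and Cma1 at 0 in CTL, and their part in the Urod ratio was not tested. Urod had a log2 ratio of 0.68 in the cluster with mast cell genes among its leading genes and 0.61 in the other. In neutrophil-primed cells Cpox was the 1 member higher, beside 8.48% of all genes, at 21.1 CPM in IR and 16 CPM in CTL (0.40, interval 0.10 to 0.72). No member was lower in those last classes, where 20.7% and 12.1% of all genes were. With 7 members a count of 1 or 2 is not far from these backgrounds.

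Urod, Cpox, Ppox and Fech each had the same sign of ratio in most groups of cells. Over the 9 groups with at least 100 cells in each library (4 named classes and 5 unnamed clusters), Urod was above 0 in 9, with log2 ratios from 0.19 to 0.64 and a median of 0.29, and Cpox in 8 of 9 (-0.10 to 0.55). Ppox was below 0 in 8 of 9 (-0.66 to 0.03) and Fech in 7 of 9 (-0.73 to 0.17), and Alas1 ran from -0.06 to 0.48. Interval by interval, 7 of 9 for Urod and 4 of 9 for Cpox lay above 0, and 3 of 9 each for Ppox and Fech below 0. All 9 groups come from the same 2 libraries, so they are not repeats of the comparison. The share of all genes with the same sign in as many groups was not taken, so these counts have no background.

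The class mix was then held fixed. When the IR level of each of the 19 clusters was weighted by the UMI share of that cluster in CTL, Alas1 came to 30.97 CPM, against 28.4 CPM in CTL (log2 0.13 in place of 1.28), and Cpox to 17.1 CPM, against 14.0 CPM in CTL (0.28 in place of 1.08). Conversely, CTL levels at the IR mix gave 61.3 CPM of Alas1 and 25.7 CPM of Cpox. Alad came to log2 0.11, Uros to 0.24 and Urod to 0.27. Fech turned to -0.26 and Ppox came to -0.30. None of the 7 measured members was 25% higher or 20% lower at the CTL mix. The share of all genes past these marks was not taken at a fixed mix, so this count has no background. At the IR mix the log2 ratios were 0.17 for Alas1, -0.02 for Alad, 0.17 for Uros, 0.29 for Urod, 0.21 for Cpox, -0.36 for Ppox and -0.12 for Fech. Of these only Ppox passed a mark there, as at least 20% lower. The clusters were made without the members and without the heme pathway genes.

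**Figure D4:**
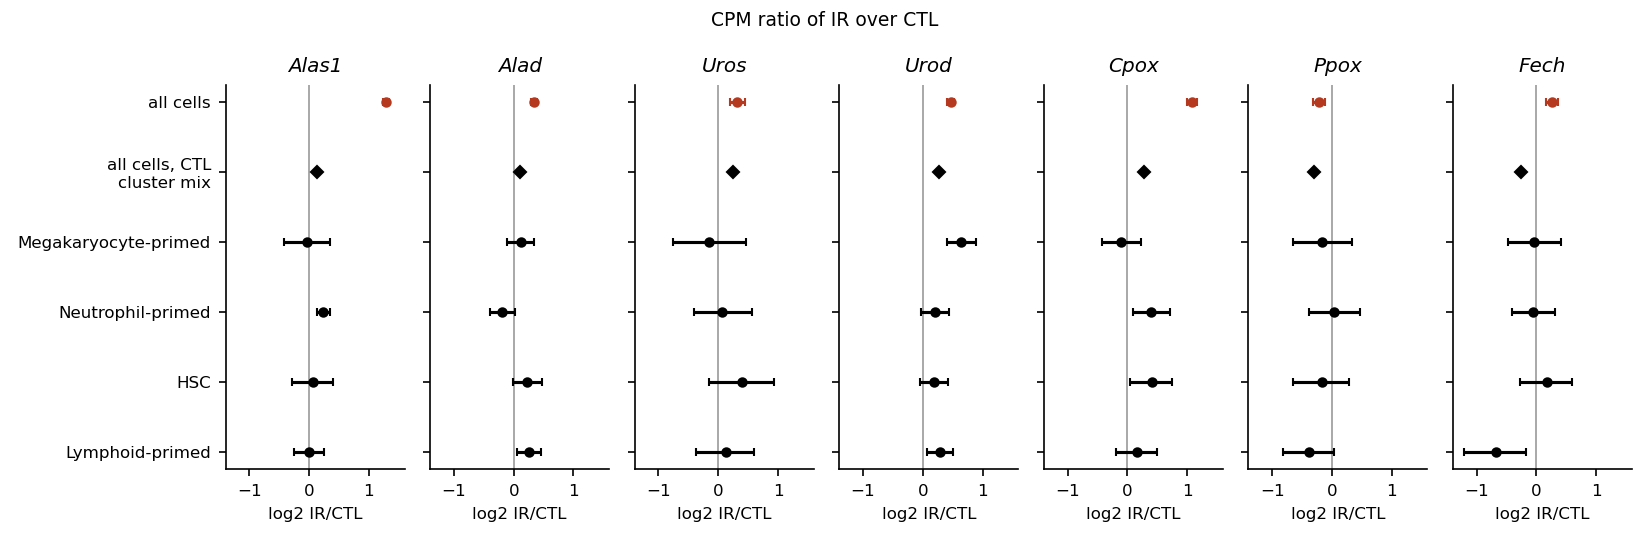
Log2 ratio of IR over CTL CPM for the 7 enzyme genes with at least 5 CPM, over all cells (red), over all cells with IR clusters weighted by their CTL shares (diamonds, no interval) and within the 4 classes with at least 100 cells in each library; bars are 95% intervals for counting error. The Alas1 ratio is 1.28 over all cells and 0.13 at the CTL mix, and the Fech ratio is 0.27 over all cells and -0.26 at the CTL mix.

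Genes around the pathway were read from lists written with earlier results of these data known. Of 22 partners of heme synthesis (mitochondrial carriers, iron-sulfur cluster factors and substrate enzymes; Fdx2 had no row), 20 had at least 5 CPM, and 8 of these were at least 25% higher and 0 were at least 20% lower in IR over all cells, beside 17.2% and 28.3% of all genes, with a median log2 ratio of 0.28. Within erythroid-primed cells 2 of 21 were higher and 6 lower, beside 20.7% and 27.5% of all genes. These counts only describe, because 39 CTL cells are too few for a comparison. Tspo2, a gene of red cell precursors and also one of the erythroid naming markers, had 13.1 CPM in IR and 0.862 CPM in CTL (log2 3.93). It was 147-fold above other cells in the IR erythroid-primed class, and Slc25a38, the mitochondrial glycine carrier, 3.93-fold. Of 5 genes for heme use in cytochromes 3 were higher and 0 lower, led by Cycs (cytochrome c, 457 CPM in IR, 264 CPM in CTL, log2 0.79) and Cyc1 (cytochrome c1, 201 CPM in IR, 126 CPM in CTL, log2 0.67). Cox10 and Cox15, which make heme A, were 1.31-fold and 1.24-fold above other cells in IR erythroid-primed cells.

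The proteins that carry heme included genes of both the neutrophil and the erythroid programme. Of 8 measured hemoproteins of blood cells 6 were at least 2-fold higher in IR over all cells and 1 was at least 20% lower, beside 1.41% and 28.3% of all genes. Within erythroid-primed cells none of 7 was higher and 4 were lower (median log2 ratio -2.22), beside 20.7% and 27.5% of all genes. Those counts also only describe, because they rest on 39 CTL cells, too few for a comparison. Of these 6 were hemoglobin-rich, beside 12 of 457 in IR. Within neutrophil-primed cells 0 of 4 were higher or lower, beside 8.48% and 12.1% of all genes, so that count is near its background. Mpo had 1424 CPM in IR and 387 CPM in CTL (log2 1.88), and Cybb, the heme-bearing subunit of the phagocyte oxidase, 18.4 CPM in IR and 3.68 CPM in CTL (2.32). The hemoglobin genes Hba-a1 (39.4 CPM in IR, 12.8 CPM in CTL, 1.62), Hba-a2 (12.6 and 2.98 CPM in IR and CTL, 2.08), Hbb-bs (53.4 and 19.9 CPM, 1.42) and Hbb-bt (80.4 and 37.2 CPM, 1.11) made up the rest, and Mpo and the globins are also naming markers. Hbb-bs was 35.4-fold and Hba-a1 32.3-fold above other cells in the IR erythroid-primed class. Of 11 measured genes for heme breakdown, transport and sensing 1 was higher and 4 were lower, near the 17.2% and 28.3% of all genes. Their median log2 ratio was -0.00. The higher one was Blvrb, a biliverdin reductase abundant in red cells, with 74.2 CPM in IR and 32.8 CPM in CTL (log2 1.18) and 31.5-fold more in IR erythroid-primed cells than in other IR cells. Hebp1, a heme-binding protein, was 7.76-fold higher in IR erythroid-primed cells than elsewhere but 9.204 CPM in IR and 12.3 CPM in CTL over all cells.

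Among iron and regulator genes, Tfrc and the erythroid factors had the largest ratios. Of 11 iron genes 3 were higher and 1 lower, beside 17.2% and 28.3% of all genes. Tfrc had 61.0 CPM in IR and 26.5 CPM in CTL (log2 1.20), and Slc11a2, an iron importer, and Steap3, a ferric reductase, were 6.42-fold and 5.25-fold above other cells in the IR erythroid-primed class. Of 11 measured regulators of the ALAS genes 3 were at least 2-fold higher and 4 were at least 20% lower, beside 1.41% and 28.3% of all genes. The higher ones were the erythroid factors Klf1 (15.5 CPM in IR, 1.42 CPM in CTL, log2 3.45), Gata1 (15.1 CPM in IR, 2.71 CPM in CTL, 2.48) and Gfi1b (14.7 CPM in IR, 4.79 CPM in CTL, 1.62), of which Klf1 and Gata1 were naming markers. Klf1 was 64.4-fold and Gata1 12.02-fold above other IR cells in the erythroid-primed class.

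Patterns over clusters were compared as a description. Over 30 points (clusters of each library with at least 50 cells, which share 2 libraries), log2(CPM + 1) of Alad ran with Urod (Pearson r = 0.78) and Cpox with Fech (0.75), while Alas1 had r between -0.40 and -0.03 with the other 7 members. The CTL erythroid-primed cluster (39 cells) and the CTL cluster led by Elane, Cebpe and Lcn2 (46 cells) fell below 50 cells. Erythroid-primed cells thus entered from IR alone, and how far the r values rest on that point was not tested. The members were set against 5252 genes, those with a mean of at least 20 CPM over the 2 libraries together with the members themselves. Among them the genes most like Alas1 were Plod3 (0.93), Tmed2 (0.93) and Vapa (0.91). Those most like Alas2 were Hba-a1 (0.92), Hbb-bs (0.90) and Igha (0.87), on few Alas2 UMIs and with the IR dendritic-like cluster as the point of highest Alas2 level. Genes close to Fech were Pon2 (0.80) and Khk (0.78). The nearest single gene was Minpp1 for Cpox (0.92), Trp53 for Alad (0.90), Pgm1 for Urod (0.85), Wrn for Ppox (0.78) and Afg3l2 for Uros (0.70).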

How the data were processed

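Per the submitters' processing notes the reads were processed by the authors with Cell Ranger 2.1.1 on mm10; the deposited matrix headers give software version 3.1.0, and the strand setting is not given in the sources used here. The deposited values are raw UMI counts per gene and cell, with no normalization by the authors. Barcodes with at least 1000 UMIs, at least 500 genes and at most 10% mitochondrial UMIs were kept, which removed 468 in IR and 496 in CTL. Scrublet marked 0.312% of IR and 0.0278% of CTL barcodes, too few to have worked, and the cells it marked were left out. Clusters (scanpy 1.11.5, leidenalg 0.10.2, resolution 1, 2000 variable genes, 30 components, 15 neighbours from each library) were made without the members and heme lists. A cluster was named when at least 3 of a class's markers were among its 25 leading genes and at least 3 were detected in 10% of its cells, a rule set after the data were seen. Counts were summed per library and class, and ratios have exact conditional binomial intervals, shares Clopper-Pearson intervals and CPM exact Poisson intervals (scipy 1.17.1), all at 95% and for counting error only. The ratio step was checked on simulated counts. Measured means 5 CPM or more, averaged over both libraries.

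All 8 members are named. Of each pathway list, genes at least 2-fold apart over all cells are named, otherwise the 2 with the largest ratio, plus the 2 highest in erythroid-primed over other IR cells, and of nearest patterns the top 3 or 1, of which 1 is not reported here. Cells were ranked along the erythroid axis by class markers that were on neither the heme lists nor the late erythroid list, the last limit set after the data were seen. Members, lists and these rules were chosen with earlier results of these data known.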

Additional observations from a re-analysis of the deposited data

How the results depend on the processing

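No paired analysis was possible because the groups share only replicate number 1 and no result comes from a test. With 1 library per group, no replicate could be left out. Median scaling shifted all log2 ratios by 0.063. Over all cells, the median log2 ratio of the members was 0.28 with totals without mitochondrial, ribosomal and hemoglobin genes, against 0.34 as reported, and 2 members in place of 4 were higher at a fold of 1.5. Of 142 alternative values for the 14 member ratios past 25% higher or 20% lower, 5 changed sign: Alas2 over all cells at the CTL class mix (-1.11), Uros in HSC-like cells without its 10 top cells (-0.013), Ppox in lymphoid-primed cells after thinning (0.091), Alas1 in erythroid-primed cells after thinning (0.66) and Ppox there without its 10 top cells (0.88). Of 322 alternative values for the 30 ratios closer to 0, 71 changed sign, for example Alas1 in HSC-like cells (-0.17 to 0.13), lymphoid-primed cells (-0.53 to 0.12) and megakaryocyte-primed cells (-0.34 to 0.51) and Alad in erythroid-primed cells (-0.45 to 1.10). The Alas1 ratio in neutrophil-primed cells kept its sign in 11 of 11 (0.12 to 0.80), though in some of them the class took in a further cluster. The cause of these changes was not tested, but leaving out 10 cells takes unequal parts of the libraries. It takes 10 of 39 CTL and of 457 IR erythroid-primed cells, and 10 of 152 CTL and of 1185 IR neutrophil-primed cells. In HSC-like cells it takes 10 of 343 in IR and of 1677 in CTL. The thinned Alas1 value in erythroid-primed cells rests on 33 CTL cells, of which 3.03% had an Alas1 UMI.

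Counts within classes moved often. In HSC-like cells, where 2 members were higher and 0 lower, 0 were higher and 1 lower without the 10 top cells, 1 was higher with all barcodes or with markers left out of the clustering, 1 was lower with 30 neighbours, and 1 was higher and 1 lower at resolution 0.5. In lymphoid-primed cells, where 0 were higher and 2 lower, 3 were higher after thinning, 1 with all barcodes, with the 5% mitochondrial limit or at resolution 0.5, 2 with markers left out and 3 with each cell named by its own markers, and 1 was lower with cells weighted equally, with markers left out or with own-marker names. In megakaryocyte-primed cells, where 1 was higher and 0 lower, 2 were higher after thinning or with 30 neighbours, and 1 was lower under both, with equal weights or with own-marker names. In neutrophil-primed cells, where 1 was higher and 0 lower, 6 were higher without the 10 top cells, 3 with markers left out or 30 neighbours, and 2 with equal weights, thinning, all barcodes, the 5% limit, heme genes kept in the clustering, resolution 0.5 or own-marker names, and 1 was lower after thinning. The cause was not tested, and the 10 top cells are a larger part of the library with fewer cells of a class. The share of Alas2 UMIs in erythroid-primed cells, 67.5% in IR and 92.9% in CTL, was 12.5% in IR and 14.3% in CTL with own-marker names, where cells named late erythroid held 75% in IR and 78.6% in CTL. Without the 10 top cells it was 50% in IR, and in CTL no Alas2 UMI was left to give a value. Depth limits Alas2 most, at 40 UMIs in IR and 14 in CTL.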

Other observations

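Barcodes removed for few UMIs or genes, 55 in IR and 21 in CTL, carried hemoglobin RNA at 24068 CPM of Hba-a1 in IR and 26506 CPM in CTL. They held 5 Alas2 UMIs in each library, beside 40 in IR and 14 in CTL in the kept cells. Cpox stood there at 273 CPM in IR (interval 136 to 488) and 229 CPM in CTL (interval 62.5 to 588), and Fech at 199 CPM in IR (interval 85.7 to 391) and 287 CPM in CTL (interval 93.1 to 669). These barcodes entered the values above only where all barcodes were kept as an alternative.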
